A study of Mus musculus with 4 samples.

Results

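The genes described here carry symbols of voltage-gated sodium and calcium channel subunits, and their RNA was measured in mouse heart ventricle. They were chosen by symbol from the 46603 genes of the deposited table, with no measured value in the rule: a sodium channel symbol (Scn, a number and the letter a or b) or a calcium channel symbol (Cacna, Cacnb or Cacng, the Cacna2d genes included). The rule found 39 genes. The 37 described here are 8 sodium channel alpha subunits, 3 sodium channel beta subunits, 10 calcium channel alpha1 subunits, 4 calcium channel beta subunits, 4 alpha2delta subunits and 8 gamma subunits.

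Voltage-gated channels open when the membrane depolarises. In ventricular myocytes the sodium current carries the upstroke of the action potential, and the L-type calcium current, which enters afterwards, triggers calcium release from the sarcoplasmic reticulum and so contraction. The alpha subunit forms the pore. Sodium channel beta subunits are single-pass proteins with an immunoglobulin fold that tune gating and adhesion, whereas calcium channel beta subunits are cytosolic and, with the alpha2delta subunits, bring the pore to the membrane and shape its current.

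The study sequenced messenger RNA from ventricles of C57Bl6/J mice of 8 to 12 weeks, either wild type (WT) or P2Y6-null (KO), P2Y6 being a G protein-coupled receptor for nucleotides. The mice were given 7 days of daily intraperitoneal saline or of isoproterenol (50 mg/kg/day), which activates beta-adrenergic receptors and makes the heart enlarge. Each of the 4 groups (WT or KO, with saline or isoproterenol) had 1 library of 18771198 to 25637369 reads, and neither the number of animals behind a library nor the construction of the null allele is given in the sources used here. The targeted gene, P2ry6, stood at 5.11 and 5.89 CPM (reads per 1000000 reads of the library) in the WT libraries and at 0.566 and 0.533 CPM in the KO libraries, in each case saline before isoproterenol. All 10 cardiomyocyte markers were present, with a summed level of 63081 to 76791 CPM.

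Folds are ratios of whole reads between 2 libraries after TMM scaling, with 95% counting intervals in parentheses. A gene was counted as beyond 1.5-fold when both ends of its interval were. Of the 37 channel genes, 21 averaged 10 reads or more per library and entered this count. Since each group is a single library, no pair of libraries was given a p-value, and an interval describes counting error in those libraries, not the spread between hearts. The single fit that leaves an error term, an additive model of treatment and genotype over the 4 libraries with 1 residual degree of freedom, was tested with limma. The residual of this fit is the difference between the isoproterenol responses of the genotypes. Its standard errors and p-values therefore do not measure the spread between hearts.

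In the KO isoproterenol library the sodium channel beta subunit gene Scn4b, the skeletal muscle type sodium channel gene Scn4a and the skeletal muscle type calcium channel gene Cacna1s were lower than in the KO saline library, while the calcium channel beta subunit gene Cacnb3 was higher. Cacna1c, the pore gene of the ventricular L-type calcium channel, was within 1.5-fold in every pair. In the WT pair Scn4b was again lower, and the T-type calcium channel gene Cacna1h was higher.

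Counted by the 1.5-fold bound, the WT isoproterenol library had 1 of 21 channel genes higher and 1 lower than WT saline, 9.52% of them, against 1.66% of all 14301 genes counted the same way (0.86% higher and 0.797% lower). The KO isoproterenol library had 1 higher and 3 lower than KO saline, 19.0% against 11.3% of all genes (7.09% higher and 4.22% lower). The KO saline library had 1 gene higher and 0 lower than WT saline, 4.76% against 0.489% of all genes (0.273% higher and 0.217% lower). The KO isoproterenol library had 0 higher and 4 lower than WT isoproterenol, 19.0% against 6.0% of all genes (4.2% higher and 1.8% lower). Median log2 ratios of the 21 genes were 0.14, 0.09, −0.07 and −0.26 in these 4 comparisons, where the medians of all genes lay between −0.00091 and 0.0029. The pairs share libraries with one another, so these counts are not independent.

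In the additive limma fit 0 of 21 channel genes passed a Benjamini-Hochberg adjusted p of 0.05 for treatment, as against 0.00699% of all genes, that is 1 gene. At an unadjusted p under 0.05 there were 4 channel genes, 3 lower and 1 higher with isoproterenol, or 19.0% of them beside 14.1% of all genes. They were Scn4b, at a log2 change of −2.26 ± 0.40 (SE, adjusted p = 0.215 by limma), Scn4a at −1.39 ± 0.31 (adjusted p = 0.244), Cacnb3 at 0.96 ± 0.22 (adjusted p = 0.248) and Cacna1s at −0.91 ± 0.35 (adjusted p = 0.342). The call depends on the fit. Without TMM scaling limma called Scn4b (adjusted p = 7.13e-05) and Scn4a (adjusted p = 0.00264), where it called 2.57% of all genes. Without the filter on reads it called the same 2 (adjusted p = 0.00333 and 0.0167) and 1.31% of genes. On the recovered reads DESeq2 called Scn4a (adjusted p = 0.00368) and 1.22% of genes, and edgeR called 0 channel genes (lowest adjusted p = 0.107, 4 at an unadjusted p under 0.05, that is 19.0% of them beside 15.2% of all genes) and 0.154% of genes at the adjusted threshold. For genotype limma called 0 of 21 channel genes and 0.0% of all genes, and 1 channel gene had an unadjusted p under 0.05, Cacna1g (log2 change −0.49 ± 0.13, adjusted p = 0.996), or 4.76% of them beside 2.88% of all genes. For genotype DESeq2 and edgeR also called 0 channel genes, beside 0.0909% and 0.021% of all genes.

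**Figure D1:**
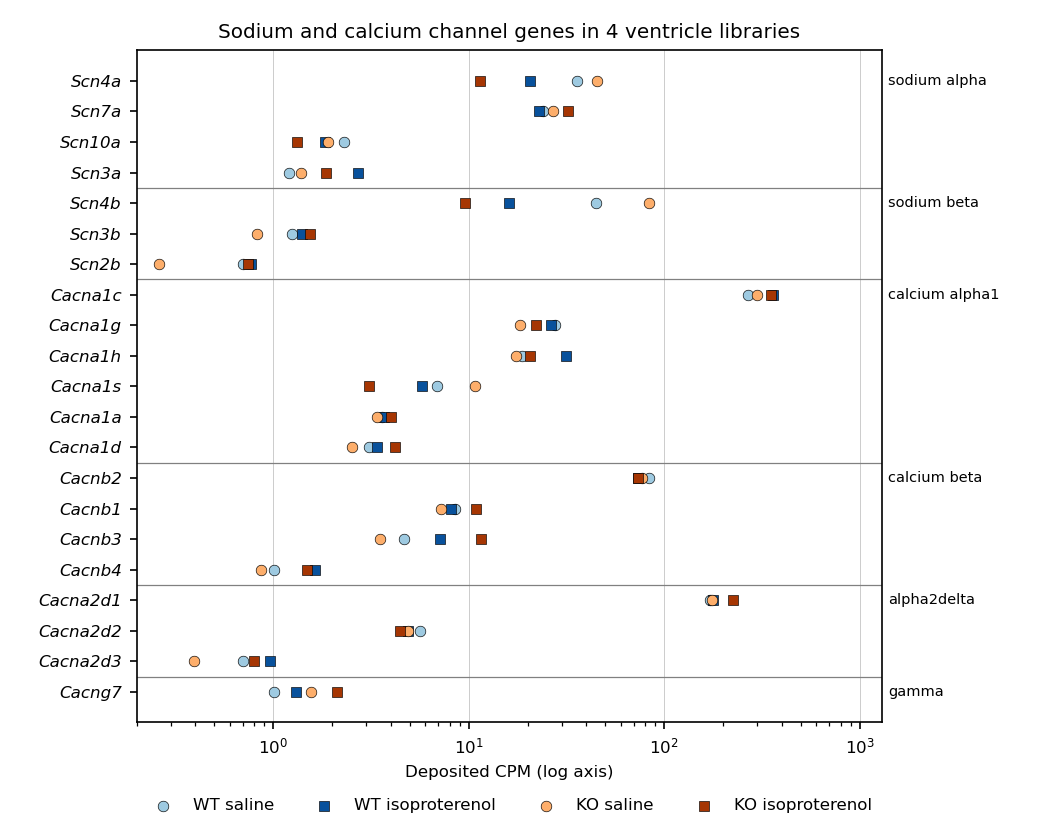
Deposited CPM (log axis) of the 21 channel genes that averaged 10 reads or more, 1 point per library, with circles for saline and squares for isoproterenol, ordered by subunit class. Cacna1c and Cacna2d1 lie at the right in all 4 libraries, and the points of Scn4b spread from 9.54 to 83.6 CPM.

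Among the pore subunits of sodium channels, Scn4a (ENSMUSG00000001027, GRCm38 chromosome 11, 106318592 to 106353288, minus strand) encodes the sodium channel of skeletal muscle. It stood at 36.0 CPM (per kilobase of exon, the scale on which different genes can be compared, 5.11) in WT saline, 20.7 (2.93) in WT isoproterenol, 45.5 (6.46) in KO saline and 11.4 (1.62) in KO isoproterenol. Both isoproterenol libraries were below both saline libraries, and the KO pair held the highest and the lowest value. How many of all genes separate by treatment in this way was not counted, here or for the genes below. In WT the treated library was lower by 1.65-fold (1.47 to 1.85). With total-count scaling this ratio became 1.74-fold, with a lower end of 1.55, and so passed the bound. In KO the treated library was lower by 4.52-fold (3.90 to 5.27). Further values are given in the same order of libraries, WT on saline, WT on isoproterenol, KO on saline and KO on isoproterenol.

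Scn7a encodes an atypical family member that responds to extracellular sodium rather than to voltage. It stood at 24.0, 22.9, 27.0 and 32.3 CPM, and in neither genotype did the treated library differ from saline beyond counting error (WT 1.01-fold, 0.891 to 1.14, and KO 1.06-fold, 0.944 to 1.18), though with total-count scaling the KO ratio was 1.20-fold (1.07 to 1.34). Markers of Schwann cells, which also express Scn7a, summed to 17.3, 13.6, 16.3 and 18.1 CPM, with 0 of 5 counted genes beyond 1.5-fold in any pair. Scn3a, a channel of developing neurons, had 31, 56, 32 and 35 reads. Its WT ratio was 2.35-fold higher, with an interval of 1.497 to 3.79 whose lower end was just under the bound. Scn10a, known from sensory neurons, had 59, 38, 44 and 25 reads and did not differ beyond counting error in either treated pair. Scn1a and Scn9a had 0 reads in all 4 libraries, where the floor of 3 reads allows up to 0.117 to 0.16 CPM, and Scn8a and Scn11a had at most 2.

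Among the sodium channel beta subunits, Scn4b (ENSMUSG00000046480, GRCm38 chromosome 9, 45138395 to 45154152, plus strand), whose product is linked to the pore by a disulfide bond, stood at 44.6 CPM in WT saline, 16.1 in WT isoproterenol, 83.6 in KO saline and 9.54 in KO isoproterenol. The 2 saline libraries were high and the 2 isoproterenol libraries low, without overlap, and KO was at both extremes. The treated library was lower by 2.62-fold (2.32 to 2.97) for WT, while for KO it was lower by 9.92-fold (8.53 to 11.7). The KO library was higher than WT under saline, by 1.94-fold (1.80 to 2.09), and lower than WT under isoproterenol, by 1.95-fold (1.62 to 2.36), or 1.68-fold (1.40 to 2.03) and within the bound with total-count scaling. Of the 21 genes, Scn4b alone was beyond 1.5-fold in all 4 pairs. Per kilobase its level was 8.95, 3.23, 16.8 and 1.91 CPM per kb. Scn3b, a beta subunit that like Scn2b is best known from neurons, had 19 to 32 reads and Scn2b 6 to 18 reads per library, and with TMM scaling neither differed beyond counting error in any pair. With total-count scaling intervals of both excluded no change in the KO pair, with lower ends of 1.01-fold and 1.03-fold, and that of Scn2b also in KO against WT under saline.

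Among the calcium channel pores, Cacna1c, the L-type channel of ventricular myocytes, stood at 269, 361, 299 and 350 CPM. It was the leading alpha1 gene per kilobase in each library, at 66.8%, 69.9%, 70.9% and 75% (73.8 to 76.3) of the class. Both treated libraries were above both saline libraries in CPM. With TMM scaling the WT ratio was 1.42-fold (1.37 to 1.46) and the KO ratio 1.03-fold (0.997 to 1.07), so that the KO pair did not differ beyond counting error. With total-count scaling the KO ratio was 1.17-fold (1.13 to 1.21), which excludes no change. Under isoproterenol KO was lower than WT by 1.19-fold (1.16 to 1.24) with TMM scaling. By total counts it was lower by 1.03-fold (0.997 to 1.07), which includes no change. Cacna1d, an L-type channel known for its part in sinoatrial pacemaking, had 79, 70, 58 and 79 reads and a KO ratio of 1.47-fold (1.03 to 2.10).

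Cacna1s (ENSMUSG00000026407, GRCm38 chromosome 1, 136052750 to 136119822, plus strand) encodes the L-type channel that serves as voltage sensor in skeletal muscle. It stood at 6.90, 5.74, 10.8 and 3.09 CPM, with the highest and the lowest value both in KO. The WT pair did not differ beyond counting error (log2 ratio −0.18, −0.53 to 0.16), whereas in KO the treated library was lower by 3.92-fold (2.96 to 5.35). Under isoproterenol KO was lower than WT by 2.14-fold (1.56 to 3.0), or 1.85-fold (1.35 to 2.59) and within the bound with total-count scaling. Scn4a and Cacna1s, both of the skeletal muscle type, were read in all 4 of these ventricle libraries. The markers of skeletal muscle were at the margin of detection there. Myh4 had 0 reads in all libraries, Myh1 and Myh2 had at most 3, and the 8 markers summed to 2.69, 2.46, 2.57 and 8.10 CPM. Of the 3 markers with enough reads, the fast troponins stood in opposite directions: Tnnt3 had 6 reads in KO saline and 120 in KO isoproterenol (interval 9.62-fold to 59.9-fold higher), while Tnni2 had 27, 10, 25 and 11 reads, lower in both treated libraries, with a WT interval that includes no change (0.969 to 4.78). Whether RNA from skeletal muscle has a part in the Scn4a and Cacna1s ratios was not tested. In such whole-tissue libraries fewer cells of a type and less RNA per cell cannot be told apart.

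Beside these lower channel genes, and 4.22% of all genes, 4 of 10 cardiomyocyte markers (40.0%) were also lower in the KO pair and 0 higher. Their median log2 ratio was −0.37, and with total-count scaling 2 were lower. Their summed level was 76791, 72417, 75806 and 63081 CPM. Myl2, the ventricular myosin light chain, was lower by 2.10-fold (2.08 to 2.11), the largest of these 4 ratios. Ryr2, the calcium release channel, was lower by 1.09-fold (1.07 to 1.11) with TMM scaling only. Its deposited level was higher in KO isoproterenol (1445 CPM) than in KO saline (1387 CPM). The part of these markers in the channel ratios was not tested.

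The T-type channels, which open at low voltage, are known from embryonic ventricle and the conduction system. Cacna1h stood at 18.6, 31.6, 17.5 and 20.6 CPM, so that the WT isoproterenol library stood apart from the other 3. It was higher than WT saline by 1.79-fold (1.59 to 2.02), while the KO pair did not differ beyond counting error (1.04-fold, 0.898 to 1.19). KO isoproterenol was therefore lower than WT isoproterenol by 1.77-fold (1.56 to 2.02), or 1.53-fold (1.35 to 1.74) and within the bound with total-count scaling. Cacna1g, the other T-type gene with enough reads, stood at 27.8, 26.3, 18.2 and 22.1 CPM. With TMM scaling neither treated pair differed in Cacna1g beyond counting error. With total-count scaling the KO ratios of Cacna1g, at 1.21-fold (1.05 to 1.39), and Cacna1h, at 1.17-fold (1.02 to 1.35), excluded no change. For Cacna1g KO was lower than WT by 1.47-fold (1.30 to 1.66) under saline and by 1.38-fold (1.21 to 1.57) under isoproterenol, neither past the bound. Of 6 atrial myocyte markers 2 were lower in KO than in WT under saline, or 33.3% beside 0.217% of all genes. The part of atrial cells in the Cacna1g ratio was not tested. The pacemaker channel gene Hcn4, a conduction cell marker, stood at 8.31, 8.78, 6.84 and 5.49 CPM. Its KO to WT ratio under isoproterenol was 1.85-fold lower (1.45 to 2.39), not past the bound. Of 5 conduction cell markers with enough reads 0 were beyond 1.5-fold in the WT or the KO pair.

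The remaining alpha1 genes were low or near the floor. Cacna1a, a channel of nerve terminals, had 75 to 92 reads and did not differ beyond counting error in any pair. Cacna1b, Cacna1e, Cacna1f and Cacna1i had at most 6 reads in any library.

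Among the calcium channel beta genes Cacnb2, the principal cardiac form, stood at 83.9, 73.6, 77.4 and 73.4 CPM. With TMM scaling its largest ratio was 1.20-fold lower (1.11 to 1.28), in the KO pair. By total counts that ratio was 1.05-fold lower (0.982 to 1.13), which includes no change. Cacnb3 (ENSMUSG00000003352, GRCm38 chromosome 15, 98630840 to 98644529, plus strand), a beta subunit best known from neurons and smooth muscle, stood at 4.64, 7.14, 3.53 and 11.6 CPM. Both treated libraries were above both saline libraries. The WT ratio was 1.62-fold (1.27 to 2.09), not past the bound, and the KO ratio 2.89-fold (2.24 to 3.79). Per kilobase Cacnb3 made up 12.2% (10.2 to 14.2), 19.1% (16.5 to 21.7), 10.4% (8.36 to 12.5) and 26.3% (23.5 to 29.1) of the class, and Cacnb2 66.9%, 59.6%, 69.5% and 50.3%. Cacnb1, the skeletal muscle form, had a KO ratio of 1.33-fold (1.08 to 1.64), and Cacnb4, with 20 to 34 reads, did not differ beyond counting error in any pair.

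**Figure D2:**
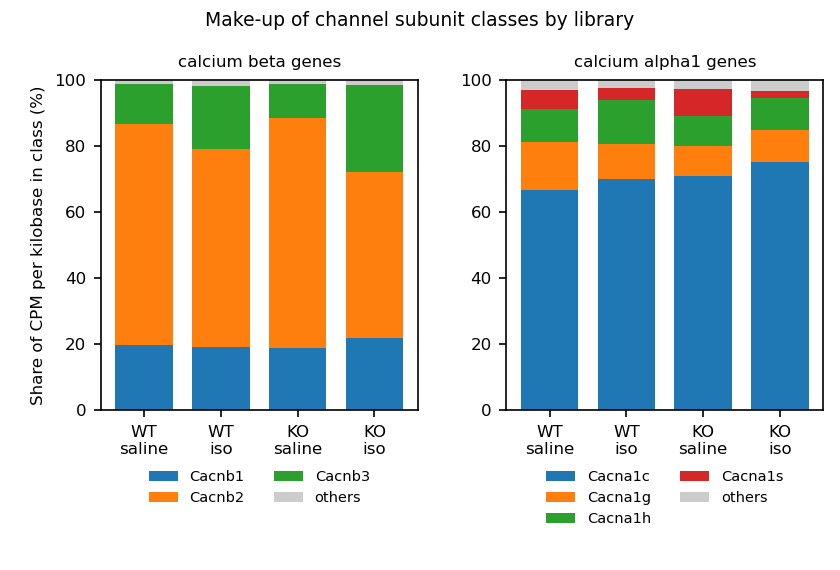
Share of each gene in the length-scaled level (CPM per kilobase, %) of 2 calcium channel subunit classes, 1 bar per library, with iso for isoproterenol and genes under 5% in every library pooled as others. In the left panel the Cacnb3 part grows from 10.4% to 26.3% between the KO libraries, and in the right panel Cacna1c makes up 66.8% or more of every bar.

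Some markers of other cell types that could carry Cacnb3 were also higher in the KO isoproterenol library. Of all genes, 7.09% were higher there than in KO saline by the 1.5-fold bound. Of 6 smooth muscle markers 2 were higher than in KO saline, Cnn1 by 3.35-fold (2.74 to 4.13) and Tagln by 1.66-fold (1.54 to 1.80), while Myh11, the smooth muscle myosin, was lower by 1.29-fold (1.20 to 1.38). Of 4 neuron markers with enough reads 2 were higher, Tubb3 by 10.5-fold (6.76 to 17.9) and Uchl1 by 5.74-fold (4.70 to 7.11), and among those with fewer reads Th had 3, 9, 0 and 25 and Snap25 5, 1, 0 and 0. The 7 neuron markers summed to 16.9, 20.6, 13.1 and 54.7 CPM and the 6 smooth muscle markers to 578, 583, 470 and 540 CPM. Fibroblast markers had 4 of 6 higher (985, 1394, 886 and 3371 CPM in sum), macrophage markers 4 of 6 (216, 189, 189 and 363 CPM), and endothelial markers 0 of 6 (962, 892, 937 and 933 CPM). Markers of atrial myocytes had 3 of 6 higher (240, 191, 158 and 265 CPM). With total-count scaling fibroblast markers had 5 higher. The part of these cells in the channel ratios was not tested.

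Of the alpha2delta genes, Cacna2d1, the main form in heart and skeletal muscle, stood at 171, 178, 176 and 226 CPM. It made up 94.6%, 95.1%, 95.5% and 96.5% of its class per kilobase. With TMM scaling its largest ratio in any pair was 1.13-fold (1.08 to 1.18), in the KO pair. Its CPM, which carry no such scaling, lie farther apart in that pair. Cacna2d2 had 84 to 144 reads and differed beyond counting error in no pair. Cacna2d3 had 9 to 20 reads and overlaps, on the opposite strand, the highly expressed Lrtm1 (392, 366, 395 and 233 CPM), so its reads are uncertain without the strand setting of the counting. Cacna1d overlaps Dcp1a and Chdh, and Cacna1c overlaps Dcp1b, also on opposite strands. Of the gamma genes only Cacng7 averaged 10 reads, with 26, 27, 36 and 40 reads and no pair beyond counting error, and 2, Cacng2 and Cacng3, had 0 reads in every library. In all, 16 of the 37 channel genes fell under the minimum, with at most 6 reads (0.266 CPM) in any library and 4 at 0 throughout.

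**Figure D3:**
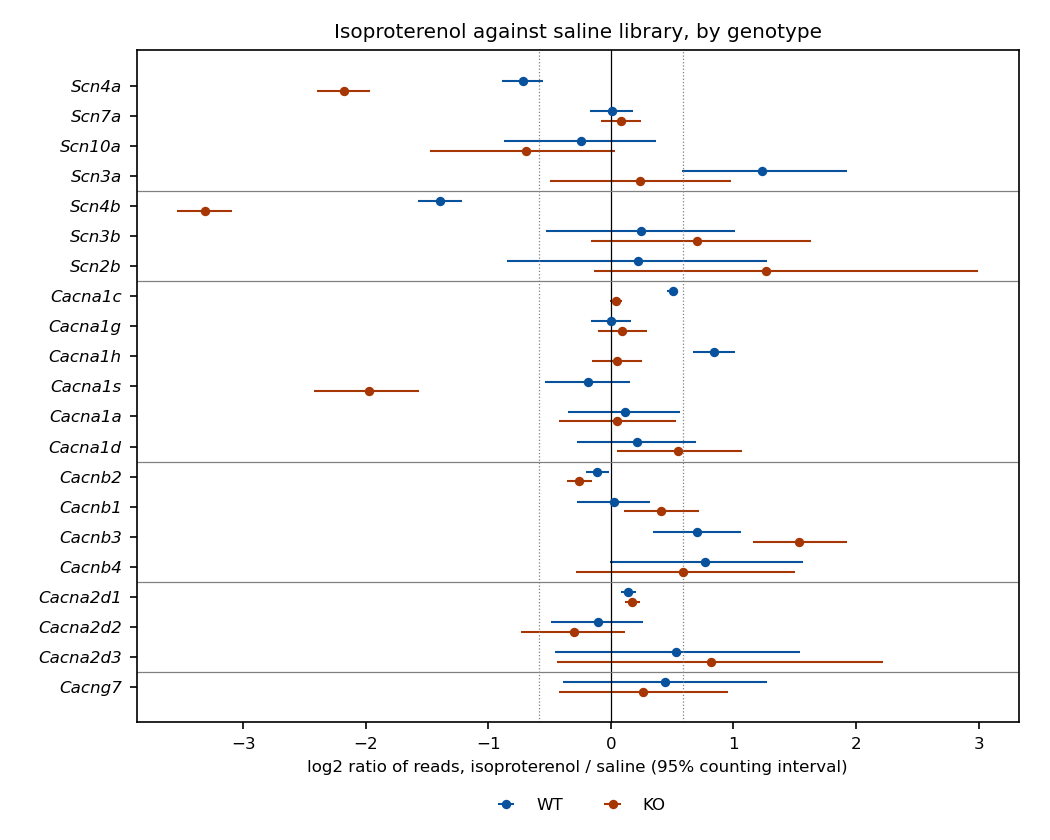
Log2 ratio of the isoproterenol to the saline library for the 21 channel genes, WT in blue and KO in red, with 95% counting intervals after TMM scaling and dotted lines at 1.5-fold. Scn4b, Scn4a and Cacna1s reach from −3.31 to −1.97 in KO, and the points of Cacna1c stay inside the dotted lines.

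The series title links loss of P2Y6 to a larger hypertrophic response. The difference between both isoproterenol responses, given here, compares levels of channel genes and does not measure hypertrophy. The log2 difference, KO minus WT, was −1.92 (−2.20 to −1.64) for Scn4b, −1.79 (−2.32 to −1.26) for Cacna1s and −1.46 (−1.72 to −1.19) for Scn4a. These 3 genes, 14.3% of the 21, had intervals wholly beyond 1.5-fold, as against 5.57% of all genes (3.83% higher and 1.73% lower). For Cacnb3 the difference was 0.83 (0.33 to 1.34), which joined the count only with total-count scaling, at 1.09 (0.59 to 1.60). Intervals of 4 further genes lay wholly on the lower side of no difference without passing the bound: Scn3a, Cacna1h at −0.79 (−1.05 to −0.52), Cacna1c at −0.46 (−0.53 to −0.39) and Cacnb2. With total-count scaling the intervals of Scn3a and Cacnb2 included no difference. Of 5 genes that changed sign, Cacnb2, at −0.15, was the 1 whose interval had excluded no difference. The intervals of 4 genes then came to lie wholly on the higher side. They were Cacnb1 at 0.65 (0.23 to 1.06), Cacna1g at 0.35 (0.098 to 0.61), Scn7a at 0.33 (0.097 to 0.57) and Cacna2d1 at 0.29 (0.20 to 0.38). Beside these, 2 of 10 cardiomyocyte markers were lower in this difference and 4 lower in KO against WT under isoproterenol (1 and 0 with total-count scaling). Fibroblast markers had 2 of 6 higher in either comparison, and macrophage markers 3 of 6 in the difference and 4 under isoproterenol. Atrial myocyte markers had 3 of 6 higher in the difference and 1 under isoproterenol, and neuron markers 2 of 4 in either. Of all genes, 4.2% were higher and 1.8% lower in KO against WT under isoproterenol. The part of all these markers in the channel values was not tested. There is no error term for an interaction here, so the difference was not tested. Total-count scaling raised the median of all genes by 0.26 for such differences, by 0.18 for the KO pair and by 0.21 for KO against WT under isoproterenol, and the share of called genes that were higher went from 68.8% to 92.6%, from 62.7% to 80.2% and from 69.9% to 90.3%. For the WT pair that share went from 51.9% to 40.6%. No channel gene of the KO pair changed sign or its side of the 1.5-fold bound with it, though 6 intervals came to exclude no change and 1, that of Cacnb2, to include it.

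**Figure D4:**
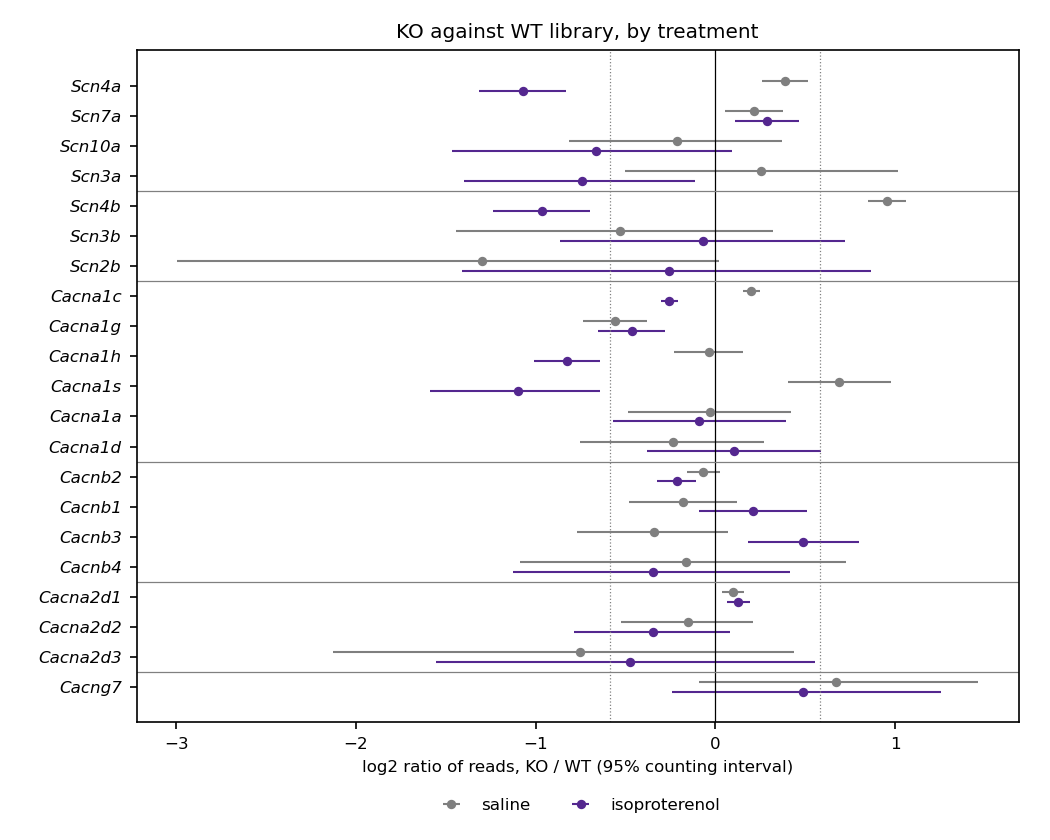
Log2 ratio of the KO to the WT library for the same 21 genes, saline in grey and isoproterenol in purple, with 95% counting intervals and dotted lines at 1.5-fold. Scn4b lies at 0.96 under saline and −0.96 under isoproterenol, and Cacna1g below 0 under both.

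The difference for Scn4b, Scn4a and Cacna1s rests on both treatments. Under saline the KO library was higher than WT by 1.31-fold (1.20 to 1.43) for Scn4a and 1.61-fold (1.32 to 1.97) for Cacna1s, as it was for Scn4b. Under isoproterenol all 3 were lower in KO, Scn4a by 2.10-fold (1.78 to 2.49). With TMM scaling, in 5 of the 21 genes both treated pairs had intervals on the same side of no change, 2 higher (Cacnb3 and Cacna2d1) and 3 lower (Scn4b, Scn4a and Cacnb2). These 5 are 23.8% of the 21, beside 19.6% of all 14301 genes (8.59%, or 1229 genes, higher and 11%, or 1570 genes, lower). In 10 genes, 47.6%, neither interval excluded no change, beside 37.1% of all genes, and in 0 did the genotypes have intervals on opposite sides, beside 3.75%. With total-count scaling 4 were higher (Cacna1c and Cacna1h joining), 2 lower (without Cacnb2) and 6 neither, beside 7.05%, 10.6% and 31.0% of all genes.

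Several channel genes lie side by side in the genome and yet differed widely in level. On chromosome 9, Scn10a and Scn11a are neighbours 34.4 kb apart with no coding gene between them, and their levels in WT saline were 0.289 and 0.0132 CPM per kb. On the same chromosome Scn2b ends 8.32 kb before Scn4b starts, with 0.151 and 8.95 CPM per kb. On chromosome 2, Scn1a, Scn9a and Scn7a follow one another at gaps of 39.2 and 38.5 kb, the first 2 without reads and Scn7a at 3.27 CPM per kb.

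Sequence before the start sites is shown for Cacna1s and Cacnb3, which were lower and higher in the KO pair. RefSeq start sites on GRCm38.p6 were found for 29 of the 37 genes, 16 of the 21 with enough reads, with 2 starts for Cacnb3. Windows of 250 bases upstream were searched on both strands, and the stretches that no GENCODE exon covers are printed 5′ to 3′ on the plus strand, with matches to CANNTG (E-box) or GGGCGG (GC box, here as its complement CCGCCC) in capitals. The windows printed are chr1:136052561-136052749, chr15:98632078-98632327 and chr15:98634568-98634766.
Cacna1s: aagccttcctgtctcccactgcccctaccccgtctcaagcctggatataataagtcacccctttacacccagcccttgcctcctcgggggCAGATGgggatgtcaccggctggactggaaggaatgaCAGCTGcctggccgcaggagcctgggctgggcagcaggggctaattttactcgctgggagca
Cacnb3, first start: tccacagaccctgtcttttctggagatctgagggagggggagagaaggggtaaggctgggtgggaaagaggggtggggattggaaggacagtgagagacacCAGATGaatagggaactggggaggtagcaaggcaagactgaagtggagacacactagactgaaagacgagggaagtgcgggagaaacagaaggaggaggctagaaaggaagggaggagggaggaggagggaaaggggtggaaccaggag
Cacnb3, second start: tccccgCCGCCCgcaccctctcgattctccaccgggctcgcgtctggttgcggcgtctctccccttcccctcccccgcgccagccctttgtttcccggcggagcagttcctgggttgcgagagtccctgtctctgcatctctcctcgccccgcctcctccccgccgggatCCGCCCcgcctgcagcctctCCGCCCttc

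The Cacna1s window held the E-box at 2 places, the M-CAT motif CATTCC on the opposite strand at 1 place (in lower case above) and the GC box at 1, the last within an exon and so not printed. These letters occur in 66.2%, 12.6% and 32.7% of all 32851 RefSeq windows of that length. The windows of Cacnb3 held the E-box once at the first start and the GC box 3 times at the second. The TATA box TATAAA, present in 12.4% of all windows, had 0 matches in these 3. The same was true of the core of the cAMP response element, searched as the letters TGACG and present in 17.8%. It was also true of a nuclear receptor site, searched as the letters AAGGTCA and present in 4.08%, and of the degenerate MEF2 (2.92%) and CArG (1.47%) motifs. The windows of Scn4b and Scn4a held none of the 8 motifs. The RefSeq start lies 3898 bases inside the GENCODE gene for Scn4a, and 1488 and 3927 bases inside it for Cacnb3. The windows of these 2 genes thus lie within the gene coordinates given above. The start lies 229 bases inside for Scn4b and 61 for Cacna1s. No match overlapped another. The share of G and C was 62.4% for Cacna1s, 56.0% and 70.4% for Cacnb3, 66.0% for Scn4b and 61.6% for Scn4a, where the median of all windows was 52.4%.

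Genes listed as partners of these channels were counted in the same way. Of 22 genes on the sodium channel list, 21 had enough reads, and in the KO pair 2 (9.52%) were lower and 0 higher, where 4.22% of all genes were lower and 7.09% higher. The median log2 ratio of the list was 0.03, and total-count scaling gave 1 lower and 3 higher. The 2 were Fgf9, which encodes a secreted growth factor and not one of the intracellular FGF proteins that bind these channels, by 2.01-fold (1.54 to 2.66) and the phosphatase Ptpn3, which binds sodium channels, by 1.94-fold (1.78 to 2.11). Ank3 (ankyrin-G, which holds sodium channels at the intercalated disc) was lower by 1.26-fold (1.17 to 1.35), and Fgf13, an intracellular modulator of sodium channels, by 1.32-fold (1.21 to 1.44). The genes of other intracellular FGF proteins on the list went the other way. Fgf11 was higher by 1.44-fold (1.10 to 1.89), Fgf12 by 2.07-fold (1.33 to 3.33) and Fgf14 by 2.11-fold (1.36 to 3.38), none past the bound. In the WT pair, in KO against WT under either treatment and in the difference of responses, 0 of 21 were beyond 1.5-fold.

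Of 26 calcium channel partners, 23 had enough reads, and in the KO pair 3 were lower and 0 higher, beside the same shares of all genes. Their median log2 ratio was −0.18, and −0.0015 by total counts, when 1 was higher. They were the kinases Camk2b, lower by 2.07-fold (1.73 to 2.49), and Camk2a, by 1.88-fold (1.73 to 2.05), and junctophilin Jph2, which tethers the sarcoplasmic reticulum to the membrane that holds the L-type channel, by 1.86-fold (1.81 to 1.92). Rrad, a small GTPase that restrains the L-type current, stood at 138, 124, 137 and 207 CPM, a KO ratio of 1.34-fold (1.27 to 1.40). In the WT pair and in KO against WT under either treatment, 0 of 23 were beyond 1.5-fold, except that total-count scaling gave 1 higher in KO under isoproterenol. In the difference of responses 1 of 23 was lower, Camk2a by 1.98-fold (1.77 to 2.22), where 1.73% of all genes were lower. Total-count scaling gave 0 lower and 2 higher there. The additive limma fit called 0 genes of either list for treatment or genotype.

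**Figure D5:**
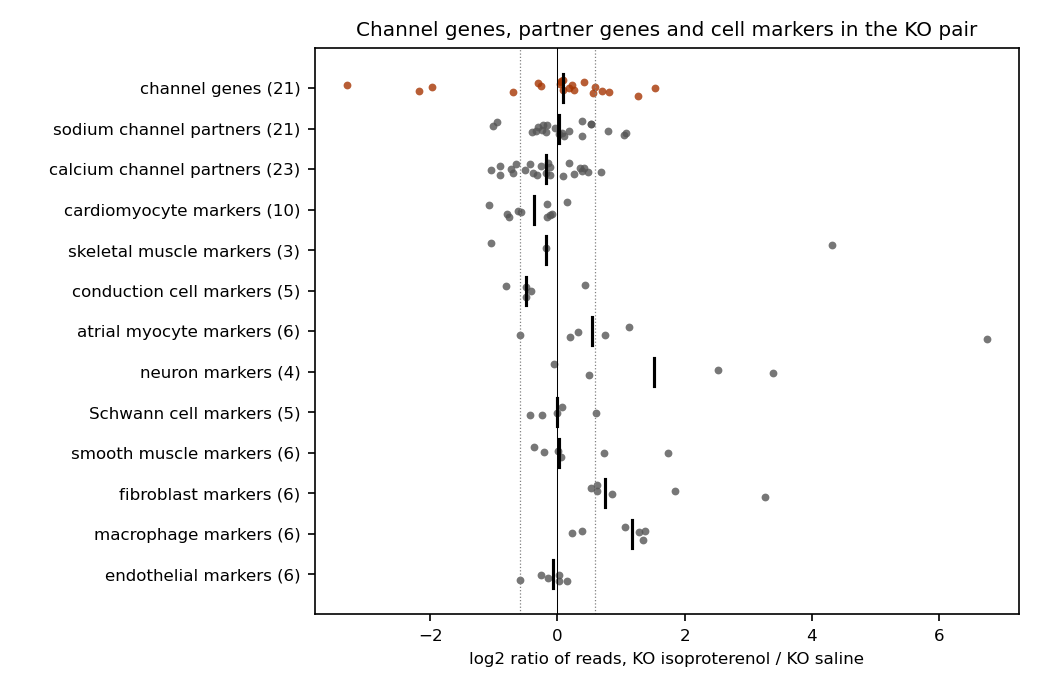
Log2 ratio of the KO isoproterenol to the KO saline library for each gene with enough reads, by list, with the number of genes in parentheses, black bars for medians and dotted lines at 1.5-fold. Channel genes reach farther down than any other list shown, and neuron, macrophage and fibroblast markers have medians of 1.51, 1.17 and 0.74.

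Outside the symbol rule, the neuronal sodium channel gene named Scn2a1 in the table stood at 0.546, 0.676, 0.566 and 0.906 CPM. The sodium leak channel gene Nalcn stood at 0.975, 0.965, 1.31 and 1.54 CPM, and the epithelial sodium channel genes Scnn1b and Scnn1g had 0 reads in every library. None of the 6 such relatives with enough reads was beyond 1.5-fold in any pair.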

How the data were processed

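The authors deposited CPM per gene, which sum to 1000000 per library. HTSeq and GRCm38.p4 (mm10) are named per the submitters' processing notes; aligner, annotation and strand setting: not given in the sources used here. Per the labels' protocols a stranded poly(A) kit was used. The 2 columns whose headers name no treatment were assigned to saline. All values above 0 (100.0%) were whole multiples of the smallest value of their column within 0.01 reads, so whole reads were recovered. Ratios used TMM factors (edgeR 4.0.16) of 0.999, 0.946, 0.966 and 1.10, 0.5 added to each count, and exact conditional 95% intervals. PCR copies could not be told from molecules, so the intervals and the floor of 3 reads cover counting error only. The additive test was limma 3.58.1 with a trend on log2(TMM-scaled CPM + 1), Benjamini-Hochberg adjusted over 14301 genes. edgeR quasi-likelihood (22 genes called by treatment, 3 by genotype), DESeq2 1.42.0, total-count scaling, no filter, a pseudocount of 0.1 and a 2-fold bound were alternatives. Fits and intervals were tested on simulated data. Exon lengths came from GENCODE M21 (GRCm38), perhaps not the release the authors used; all transcripts were merged, which affects levels between genes.

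Members and lists were chosen with earlier results of these data known. Some items, 2 of the 39 channel genes among them, are not reported here and are left out of counts, medians and figures of channel genes and lists, and shares within the sodium channel classes are not given; all genes entered the fits. Every other member is accounted for; from each list at most 4 genes beyond 1.5-fold were to be named. Ryr2, Myh11, Hcn4, Ank3, Fgf11, Fgf12, Fgf13, Fgf14, Rrad, the genes overlapping members and the relatives were named for context after their values were seen.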

Additional observations from a re-analysis of the deposited data

How the results depend on the processing

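Leaving out a library was not possible in any comparison, since each group has 1. No paired analysis was possible because each group has 1 library and the labels give no replicate numbers. With total-count scaling WT isoproterenol against saline had 2 channel genes lower, KO against WT isoproterenol 1 lower, and the difference of responses 1 higher. With a 2-fold bound 0 were higher in WT isoproterenol and in KO saline, and 0 lower in KO against WT isoproterenol. By log2(CPM + 1) beyond 1.5-fold, without intervals, 2 were higher and 2 lower in WT isoproterenol, 1 higher in KO against WT isoproterenol and 1 higher in the difference. Shares of all genes counted in these ways are not given here. The counts therefore show only how the number of channel genes moved with the setting. The additive treatment fit called 2 channel genes on unscaled CPM, 2 without a filter and 1 with DESeq2 on recovered reads. The other 47 counts stayed within 1.5 times the reported ones, and 0 ratios counted as beyond 1.5-fold changed direction. As shares of reads without length scaling, Cacnb3 made up 4.73%, 7.89%, 3.96% and 11.9% of calcium channel beta genes (libraries as ordered above), all 4 moved by more than counting error because reads scale with exon length. The 16 channel genes under the minimum were too low for a ratio at this depth.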
